A study of Mus musculus with 15 samples.

Results

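Peg10 carried 102 of the 75980 peaks in the 5 full peak lists of this HITS-CLIP study of Argonaute 2 (Ago2) and the RNA-binding protein Sfpq. Its peaks were taken as all those that the lists annotate with the gene symbol Peg10, and 6 of its Ago2 peaks were also in lists of peaks dismissed upon Sfpq knockdown. P19 cells, a mouse embryonal carcinoma line, gave 15 libraries in 5 groups of 3 replicates, each made by crosslinking protein to RNA with UV light, immunoprecipitation and sequencing of the bound RNA. Ago2 was precipitated from cells transfected with a let-7a mimic and a control siRNA (siCtr), or with siRNA against Sfpq (siSfpq) and a control mimic. In the last Ago2 group, cells received both siSfpq and let-7a. Sfpq was precipitated from control cells, given siCtr and the control mimic, and from cells with siSfpq and the control mimic. One further list came from Ago2 libraries of control cells, which were not analysed here. The replicates were merged before peaks were called, so each peak has 1 position and 1 value, no spread between replicates can be given, and neither sequencing depth nor the RNA level of a gene is in the lists. Peg10 was selected on its number of 3′UTR peaks and its scores in these lists, so its counts, values and ranks are descriptions without a test.

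Peg10 is an imprinted gene, expressed from the paternal allele and needed for placental development in the mouse, and derives from the Gag and Pol genes of a retrotransposon. Its messenger RNA holds overlapping reading frames that are joined by ribosomal frameshifting, followed by a long 3′UTR. Ago2 is the protein that miRNAs guide to target messenger RNAs, mostly through pairing of the miRNA seed with the 3′UTR, and let-7 is a miRNA family that rises as stem cells differentiate. Sfpq is a mainly nuclear protein of the paraspeckle family that binds RNA and takes part in splicing, RNA retention and decay.

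The sequences that bear on these peaks are those of the transfected miRNA, of the 3 places in the Peg10 3′UTR that match its seed, and of the frameshift site between the reading frames. They come from RefSeq, build GRCm38, and are given 5′ to 3′ on the transcribed strand. Capitals mark the seed (bases 2 to 8) in the miRNA, the match to its bases 2 to 7 in the sites (TACCTC) and the slippery heptamer in the last line.
mmu-let-7a-5p: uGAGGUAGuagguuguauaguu
let-7 site 1, chr6:4758678-4758705: agcatcacatcagttTACCTCatatctc
let-7 site 2, chr6:4759313-4759340: gtttaagtttacaggTACCTCttggact
let-7 site 3, chr6:4759881-4759908: ataagttagatcaaaTACCTCaacaagt
frameshift site, chr6:4755318-4755344: ttcgccgccGGGAAACtccccggcccc

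The gene spans chr6:4747306-4760517 on the plus strand in RefSeq (GRCm38, another name for the mm10 build of the lists). It has 2 exons. Exon 1 (273 nt) and a first part of exon 2 (97 nt) are 5′UTR, and an intron of 6545 nt lies between them. The first reading frame covers 1131 nt, the second extends the coding sequence by 1889 nt, and the 3′UTR after it has 3277 nt (chr6:4757241-4760517). RefSeq also gives a transcript with the same exons whose coding sequence ends after the first frame. Its 3′UTR counts 5166 nt and holds the second frame.

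The control Ago2 list held 8 Peg10 peaks, the Ago2-let-7a list 18, the Sfpq list 37, the list of let-7a peaks recruited upon Sfpq knockdown 31 and the list of recruited endogenous peaks 8. Exon 2 held nearly all of the Ago2 peaks, whereas Sfpq peaks also ran through the intron. Of the Sfpq peaks, 13 lay in the intron, 14 in the reading frames and 10 in the 3′UTR. The intron held 1 Ago2-let-7a peak, 2 recruited endogenous peaks and no control Ago2 or recruited let-7a peak. The Ago2-let-7a list contains peaks stronger with let-7a than with the control mimic, both with siCtr. The Sfpq list contains peaks stronger with siCtr than with siSfpq, and the recruited let-7a list peaks stronger with siSfpq and let-7a than with siCtr and let-7a. The value in these lists is a dCLIP score, a measure of the difference between conditions with no unit. The authors filtered it at a score of 7, and the lowest score in each of these lists is 8. The remaining pair of lists, control Ago2 and recruited endogenous, give reads per peak, with at least 10 reads. The recruited endogenous list was read here as the Ago2 peaks of siSfpq cells, as the study's methods have it, although its own header names siCtr cells too. Values were ranked within a list and not compared between lists.

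**Figure D1:**
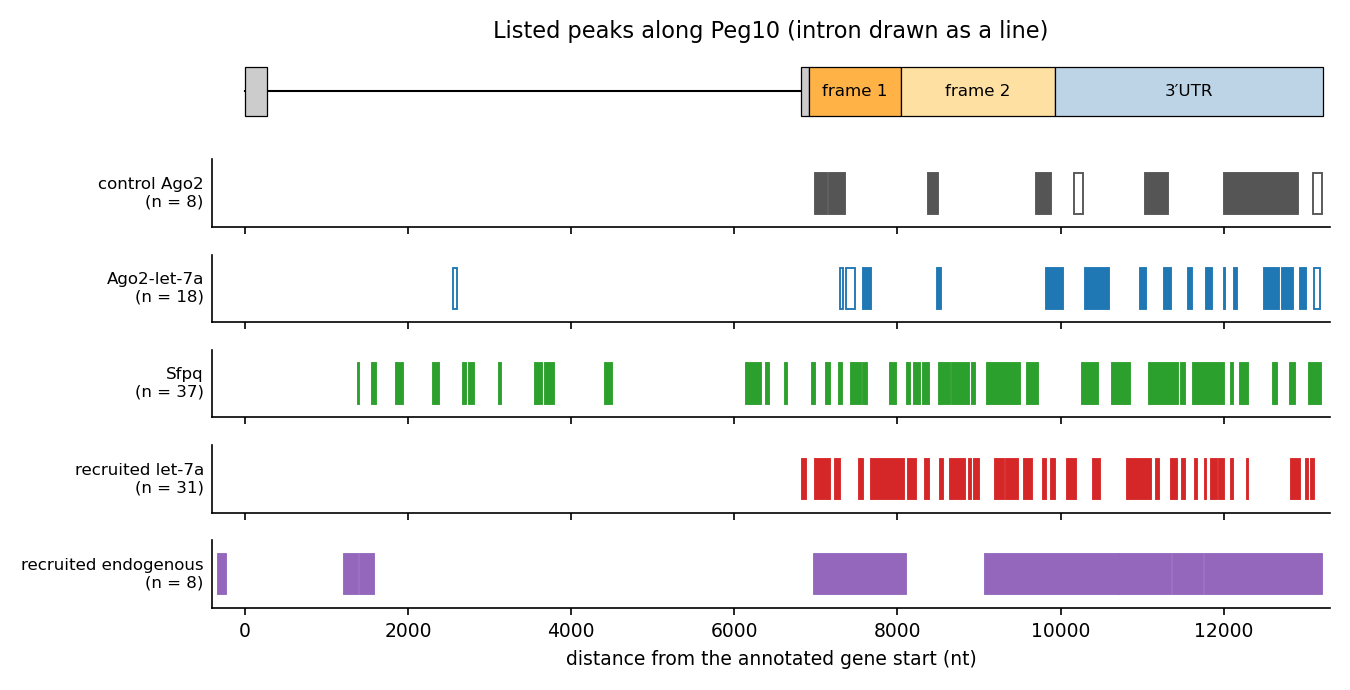
Listed peaks along Peg10, with distance from the annotated gene start in nt on the horizontal axis and 1 row per list; boxes are peaks, and open boxes are peaks dismissed upon Sfpq knockdown. The 37 Sfpq peaks cover intron and exon 2, the 31 recruited let-7a peaks lie in exon 2 only, and the recruited endogenous peak left of the gene lies on the opposite strand.

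Ago2-let-7a peaks were concentrated at the end of the transcript. The files place 11 of the 18 in the 3′UTR, 5 in the coding part of exon 2, 1 in the intron and 1 at the transcription termination site (TTS). In the 3′UTR the scores were 24, 17, 11, 21, 35, 23, 8, 44, 109, 75 and 18 in order from the stop codon, the first of them beginning in the last bases of the second frame. The highest-scoring peak (109, chr6:4759805-4759979, 175 nt) began 2564 nt into the 3′UTR, and the next (75, chr6:4760025-4760154, 130 nt) followed it 45 nt downstream. The remaining 9 scored 44 or less, and the lowest (8, chr6:4759305-4759319, 15 nt) was at the lowest score of the whole list. The peak labelled TTS (26, chr6:4760415-4760489) still lies inside the annotated 3′UTR and ended 28 nt before the end of the gene. In the coding part the scores were 18, 20, 19, 8 and 38, and the one of 38 (chr6:4757130-4757199) lay in the second frame close to its stop codon. The intronic peak scored 10 (chr6:4749860-4749909). Over the list as a whole, the median score was 10 and 3′UTR peaks also had a median of 10, against 23 for the Peg10 3′UTR peaks. Their median length (75 nt) equalled that of all 3′UTR peaks of the list.

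**Figure D2:**
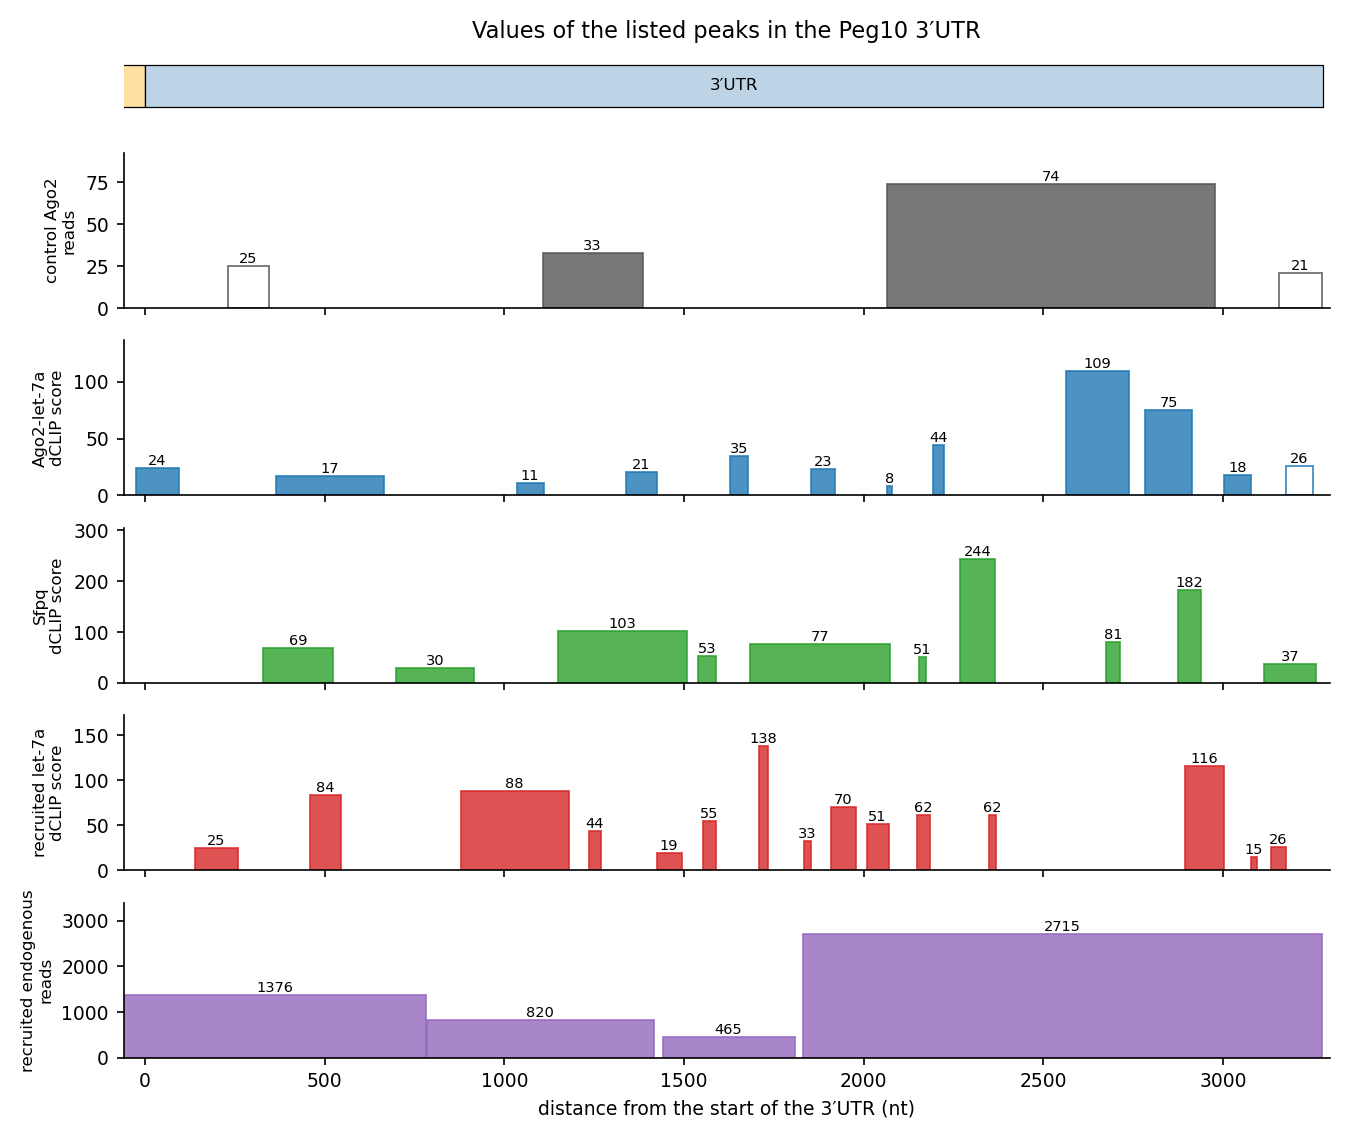
Values of the listed peaks in the Peg10 3′UTR, with distance from its start in nt on the horizontal axis and, per list, reads or the dCLIP score on the vertical axis; each bar spans its peak, its height and number are the value, and open bars are dismissed peaks. The highest Ago2-let-7a bars (109 and 75), Sfpq bars (244 and 182), control bar (74) and recruited endogenous bar (2715) lie toward the 3′ end.

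Peg10 largely kept its Ago2-let-7a peaks upon Sfpq knockdown. A peak was called dismissed by the authors if it was weaker with siSfpq and let-7a than with siCtr and let-7a. It also had to show no change between siSfpq and siCtr cells without let-7a. Every other peak is called kept here, which does not mean that it was unchanged. None of the 11 peaks annotated as 3′UTR was dismissed, whereas 72.0% of the 987 3′UTR peaks of the list were. Over all locations 4 of 18 Peg10 peaks were dismissed, against 80.2% of 4202 in the list. These were the intronic peak, 2 neighbours in the first frame (scores 18 and 20, chr6:4754600-4754639 and chr6:4754675-4754784) and the TTS peak, so that by RefSeq position 1 of the 12 peaks in the 3′UTR was dismissed. In the coding part of exon 2 it was 2 of 5 peaks, against 76.8% of 694. All 4 were in the class close to an Sfpq peak (under 500 nt), which held 1134 of the 3369 dismissed peaks of the list. As all 18 Peg10 peaks lay that close to an Sfpq peak, no other class was possible.

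In the list at large, the dismissed share was similar in the lower score ranges and lowest among the highest scores. Among 3′UTR peaks with scores of 8 to 10, 72.4% of 508 were dismissed, among those of 11 to 20 it was 74.6% of 402, and among those of 21 or more 55.8% of 77. Peg10 had 1, 3 and 7 peaks in these ranges, which are part of these totals, and none dismissed. The bearing of the score on dismissal was not tested. Of 38 genes with at least 3 Ago2-let-7a peaks annotated as 3′UTR, 3 had none dismissed (7.89%), one of them Peg10, and the other two had at most 5 such peaks. The dismissed Peg10 peaks scored 10 to 26 and the kept ones 8 to 109, so the ranges overlapped.

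**Figure D3:**
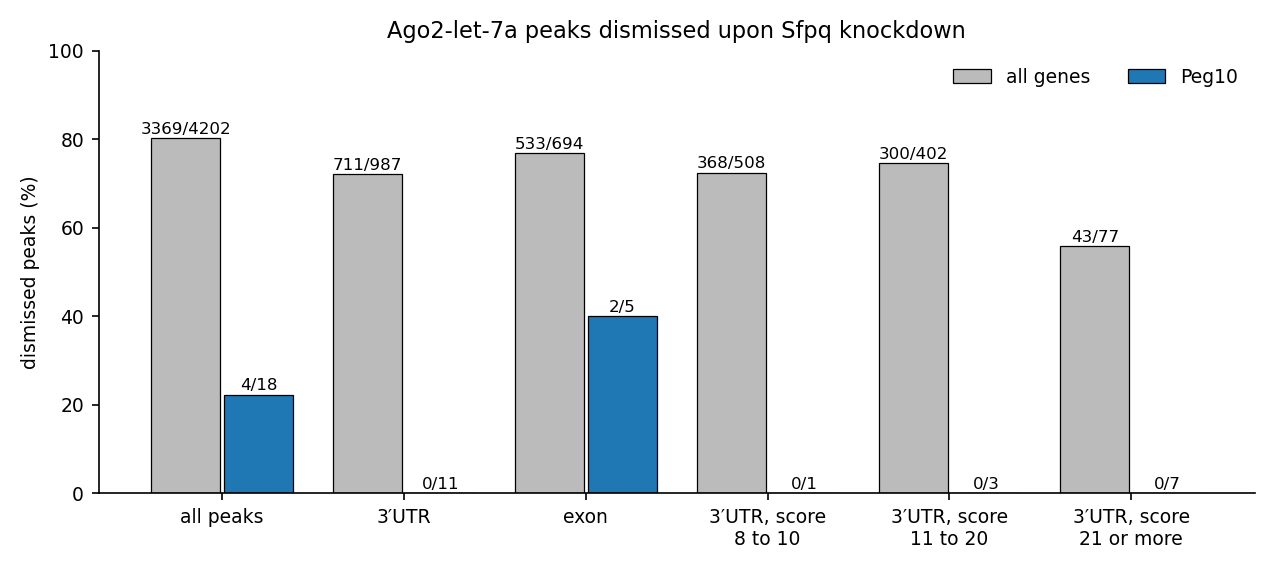
Share of Ago2-let-7a peaks dismissed upon Sfpq knockdown in percent, for all genes (grey) and for Peg10 (blue), over all locations, in the 3′UTR and coding exons as the files annotate them, and in the 3′UTR by score; numbers above bars are dismissed peaks over all peaks. Peg10 had 0 of 11 in the 3′UTR against 72.0% for all genes, and the score ranges hold 1, 3 and 7 of its peaks.

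The control Ago2 list, which reflects endogenous miRNAs, had 4 peaks in the reading frames and 4 in the 3′UTR. From the 5′ side the reads were 20, 25, 16 and 31 in the reading frames and 25, 33, 74 and 21 in the 3′UTR. The peak of 74 reads was also by far the longest (913 nt, chr6:4759307-4760219), so that it had fewer reads per length (8.11 per 100 nt) than the other 7 (11.8 to 21.7). It spanned the 3 highest-scoring Ago2-let-7a peaks. For this list the authors used another comparison. A control peak was called dismissed if it overlapped a peak stronger with siCtr than with siSfpq, both without let-7a. Its dismissed shares are therefore not the same call as those of the let-7a list. Dismissed upon Sfpq knockdown were 2 of the 8, against 30.4% of the 2065 control peaks, and of the 3 labelled 3′UTR it was 1, against 53.0%. One lay near the start of the 3′UTR (25 reads, chr6:4757472-4757586) and the other at its very end (21 reads, chr6:4760397-4760516), where it covered all 75 nt of the dismissed TTS peak of the let-7a list. That overlap is not agreement between calls. The let-7a call required no change between siSfpq and siCtr cells without let-7a, where the control call required a weaker peak with siSfpq. Both ends of the 3′UTR thus held a dismissed control peak. The first shared all 115 nt and the other 119 of 120 nt with recruited endogenous peaks (1376 and 2715 reads). Those were read here as Ago2 peaks of siSfpq cells, so dismissal does not mean that Ago2 was absent there. The 2 peaks in the second frame carry no strand in the file, and peaks without a strand occur in no dismissed list.

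Sfpq bound the 3′UTR with the highest values. In the order of the transcript the scores of the 10 peaks there were 69, 30, 103, 53, 77, 51, 244, 81, 182 and 37, of which the last is labelled TTS. The peak of 244 (chr6:4759510-4759604, 95 nt) was the highest of the 7985 3′UTR Sfpq peaks of any gene. It lay between the Ago2-let-7a peaks of 44 and 109 and touched neither. The peak of 182 (chr6:4760115-4760179) shared 40 nt with the Ago2-let-7a peak of 75, and that of 81 (chr6:4759915-4759954) lay wholly inside the peak of 109. Both of the strongest Ago2-let-7a peaks therefore contained Sfpq-bound bases. The longest 3′UTR peaks (360 and 390 nt, scores 103 and 77) lay in the middle of the 3′UTR.

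Upstream, Sfpq scores were lower. The reading frames had 14 peaks with scores of 9 to 81, with a median of 49 over the 6 in the first frame and 30.5 over the 8 in the second, where the longest Sfpq peak of the gene lay (405 nt, score 24). The intronic scores ran from 8 to 31 with a median of 13, near the median of 11 over all 29715 Sfpq peaks. All 37 had a median of 30. The dCLIP program placed 27 of the 37 peaks, from the end of the intron to the end of the gene, in a single bound cluster. The bases covered by Sfpq were 13.1% of the intron, 30.5% of the first frame, 59.3% of what the second adds and 48.1% of the 3′UTR. Coverage was thus widest in the second frame and scores were highest in the 3′UTR.

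Recruited let-7a peaks were spread along exon 2 and covered 41.4% of its bases. The list had 1 in the 5′UTR part of exon 2, 15 in the reading frames and 15 in the 3′UTR, of which dCLIP placed 30 of the 31 in a single cluster. The highest score of the gene in this list (162, chr6:4754545-4754599) lay in the first frame. The next highest were 145 near the end of the second frame (chr6:4757090-4757124) and 138 in the 3′UTR (chr6:4758950-4758974). The peak of 127 (chr6:4757190-4757239) followed, also near the end of the second frame. The 3′UTR scores were 25, 84, 88, 44, 19, 55, 138, 33, 70, 51, 62, 62, 116, 15 and 26 from the stop codon. The 3′UTR median was 55, against 14 over all 3675 recruited let-7a peaks in 3′UTRs. Unlike the Ago2-let-7a scores, those of recruited peaks were spread along the exon, with the highest of each part at 162 in the first frame, 145 in the second and 138 in the 3′UTR. The longest gap between recruited peaks of the 3′UTR (525 nt, between the peaks of 62 and 116) includes the whole Ago2-let-7a peak of 109.

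The frameshift site lay within a recruited let-7a peak. The heptamer GGGAAAC occurs once in exon 2, at chr6:4755327-4755333, and the base that RefSeq reads in both frames is 4755330. The recruited let-7a peak that spans it (score 47, chr6:4754985-4755384) was the longest of the gene in that list (400 nt). A recruited endogenous peak spanned it too, whereas the nearest Sfpq peak ended 32 nt upstream and the nearest Ago2-let-7a and control Ago2 peaks were 342 and 351 nt away. No peak of these 3 lists covered the site.

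The recruited endogenous peaks over exon 2 were few and very long. The 3 peaks labelled 3′UTR had 820, 465 and 2715 reads over 633, 367 and 1444 nt. Together with a peak that begins in the second frame (1376 reads, 1637 nt), they covered 98.4% of the 3′UTR, so almost any peak of another list there touches one of them. The peak over the first frame had 1186 reads over 1133 nt and no strand. The per-length counts of these 5 ranged from 84.1 to 188 reads per 100 nt, and the highest was that of the last 3′UTR peak (2715 reads, chr6:4759072-4760515). The intron had 2 peaks of only 14 and 24 reads.

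Ago2-let-7a peaks of Peg10 lay close to Sfpq peaks throughout. Of the 18, 11 shared at least 1 nt with an Sfpq peak, against 14% of the list, and in the 3′UTR it was 6 of 11, against 27.7%. All 18 were within 500 nt of an Sfpq peak, against 30.6% of the list (3′UTR, 11 of 11 against 56.0%), and the farthest (the first of the 3′UTR) was 190 nt away. Sfpq peaks covered 47.5% of all bases of exon 2, which holds 17 of the 18. In the 3′UTR the Ago2-let-7a peaks covered 35.7% of the bases and Sfpq 48.1%, and 475 nt were covered by both (of the longest annotated 3′UTR, which includes the second frame, they covered 25.5% and 52.2%). That is 40.6% of the Ago2-let-7a bases and 30.2% of the Sfpq bases. The Ago2-let-7a bases of the Peg10 3′UTR were thus under Sfpq peaks slightly less often than the 3′UTR as a whole. Of the dismissed peaks 3 of 4 touched an Sfpq peak, and of the 14 kept ones 8 did. In the list at large, 60.9% of the 588 peaks that touched an Sfpq peak were dismissed, against 83.3% of the 3614 that did not.

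The peaks outside Sfpq peaks included some of the strongest. The Ago2-let-7a peaks of 44, 38 and 35 touched none and were 20, 105 and 5 nt from the nearest. The Sfpq overlap of the dismissed peaks ranged widely. The TTS peak was wholly covered by an Sfpq peak (score 37), the peaks in the first frame shared 25 and 50 nt with Sfpq peaks of 81 and 35, and the intronic one was 75 nt from the nearest.

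Ago2-let-7a and recruited let-7a peaks were interleaved on the 3′UTR. Both comparisons use the let-7a libraries, so their overlap is a part of the map and not independent evidence. Of the 18 Ago2-let-7a peaks, 9 shared bases with a recruited let-7a peak, against 3.02% of the list (3′UTR, 6 of 11 against 5.27%), 4 more abutted one without a shared base and 5 did neither. Seen from the other list, 8 of the 31 recruited peaks shared bases with an Ago2-let-7a peak (1.3% of that list), and 5 of the 15 in the 3′UTR did (1.33%). In the 3′UTR the lists shared 195 nt, which is 16.7% of the Ago2-let-7a and 18.8% of the recruited bases. Recruited peaks covered 31.7% of the 3′UTR. The Ago2-let-7a peak of 11 lay wholly inside a recruited peak of 88, and the recruited peak of 84 lay wholly inside the Ago2-let-7a peak of 17. The peak of 109 was 155 nt from the nearest recruited peak. None of the 4 dismissed peaks shared a base with a recruited peak, though those at 4754600 and 4760415 started on the base after the recruited peaks of 162 and 26. Dismissed and recruited are opposite calls of the same comparison, so the lack of shared bases follows largely from the calls. In the list at large, 22.8% of the 127 Ago2-let-7a peaks that touched a recruited peak were dismissed, against 82.0% of the 4075 that did not. In 3′UTRs it was 26.9% of 52, against 74.5% of 935. Of the 11 Peg10 peaks there, 6 touched a recruited peak and 5 did not, and none was dismissed.

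Recruited let-7a peaks overlapped Sfpq peaks more than Ago2-let-7a peaks did. Of the 31, 25 touched an Sfpq peak (35.3% in the list), and in the 3′UTR 13 of 15 did (46.4%). By bases, 54.3% of the recruited 3′UTR bases were under Sfpq, against 40.6% of the Ago2-let-7a bases and 48.1% of the whole 3′UTR. The Sfpq peak of 77 alone held the recruited peaks of 138, 33, 70 and 51. The recruited peaks of 145 and 127 in the second frame were outside Sfpq peaks, by 65 and 165 nt. All 8 control Ago2 peaks touched an Sfpq peak, against 15.2% of the control list, as did the 3 labelled 3′UTR, against 54.7%. Some touched only at an edge, with as few as 5 of 122 nt shared. These peaks had a median length of 166.5 nt, against 30 nt over the control list. By bases, 40.9% of the control 3′UTR bases and 31.6% of those in exon 2 were under Sfpq. Sfpq covered 48.1% of the whole 3′UTR and 47.5% of exon 2. With the recruited endogenous list, 7 of the 8 control peaks shared bases (80.4% of the control list), and all 3 in the 3′UTR (84.9%). Control and Ago2-let-7a peaks also met often, with 10 of the 18 Ago2-let-7a peaks on a control peak (6.59% of their list) and 6 of 11 in the 3′UTR (10%).

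The 3 let-7 seed matches all lay in recruited endogenous peaks and differed in the other lists. Site 3, 616 nt before the end of the gene, lies in the Ago2-let-7a peak of 109, in the control peak of 74 reads and in the recruited endogenous peak of 2715 reads, and is 13 nt from the Sfpq peak of 81. It is the only match in the 18 Ago2-let-7a peaks of Peg10 (2.19% of the list's peaks hold one), and that peak is the strongest of the gene. Among all 987 3′UTR peaks of the list, 3.04% hold such a match, and among the 61 of like length (within 25%) 8.2% do. Site 2 lies in the same control and recruited endogenous peaks, is 13 nt from the Sfpq peak of 77 and lies just outside the Ago2-let-7a peak of 8 in the 3′UTR, by 8 nt. Site 1 lies in the Sfpq peak of 103, the recruited let-7a peak of 19 and the recruited endogenous peak of 465 reads, and is 28 nt from the nearest Ago2-let-7a peak (21). The other Ago2-let-7a peaks of Peg10 hold none of these letters. Exon 2 has no match to bases 2 to 8 of let-7a. The intron has 1, at chr6:4753585-4753591, inside an Sfpq peak of score 27.

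Matches to the seeds of 11 other miRNAs of stem cells were looked up in exon 2, of which 10 had at least 1 match to bases 2 to 7. The miR-295 and miR-302 families, abundant in embryonic stem cells, share the seed match GCACTT, which occurs once in the Peg10 3′UTR (chr6:4759063-4759068). It extends to base 8, lies in the Sfpq peak of 77, and is in no Ago2 peak of the control, let-7a or recruited lists. Its distance to the recruited endogenous peak of 2715 reads is 3 nt and that to the nearest recruited let-7a peak 6 nt. The nearest Ago2-let-7a peak (23) is 26 nt away and the control peak of 74 reads 238 nt. In the control list, 25% of the 320 3′UTR peaks with a strand hold this match. The control 3′UTR peaks of Peg10 hold other ones. The peak of 33 reads has a match to bases 2 to 8 of miR-16 (TGCTGCT, chr6:4758387-4758393), found in 5.62% of the 3′UTR peaks of the list. The peak of 74 reads has one to miR-21a (ATAAGCT, chr6:4759727-4759733), found in 0.938%, and a match to bases 2 to 7 of miR-30e, found in 6.88%. These peaks are 279 and 913 nt long, against a median of 136.5 nt for the control 3′UTR peaks, so the shares do not compare peaks of like length. The weak Ago2-let-7a peak in the second frame (8) holds matches to bases 2 to 8 of both miR-19b and miR-30e. Such matches were found in 0.643% and 0.5% of all Ago2-let-7a peaks. No match to miR-130a was found in exon 2.

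The words that the study gives for Sfpq were not denser in the Sfpq peaks of the Peg10 3′UTR than in those of other genes. CUGU or CUGA occurred 13 times in 1575 nt of Sfpq peaks (0.825 per 100 nt) and 13 times in the other 1702 nt of the 3′UTR (0.764), against 1.58 per 100 nt over the 3′UTR Sfpq peaks of all genes. The longer word NUGUA (N for any base), which contains CUGU where N is C, occurred 9 times in the peaks (0.571) and 4 times outside (0.235), against 0.868 for all genes. The peak of 244 holds 1 of the short words and no long one. The peak of 182 holds 1 of each. The 9 peaks labelled 3′UTR hold 0 to 3 of the short words each, with the most in the longest peaks. Of all 3′UTR Sfpq peaks, 67.7% hold at least 1 of the short words and 44.9% at least 1 long one.

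Peg10 starts beside Sgce, an imprinted gene for epsilon-sarcoglycan that runs in the opposite direction from its start at 4747204. The lists give 4 peaks inside Peg10 and on its strand to the promoter of Sgce. They are 3 Sfpq peaks (80, 24 and 12) and 1 recruited let-7a peak (43), of which the Sfpq peaks of 80 and 24 (chr6:4747385-4747409 and chr6:4747545-4747574) and the recruited peak (chr6:4747375-4747454) lie in exon 1 of Peg10. Without them exon 1 has no peak. Conversely, 1 recruited endogenous peak given to Peg10 (15 reads, chr6:4746979-4747080) is on the minus strand over the first exon of Sgce (chr6:4746980-4747204). By position and strand, Peg10 would have 40 Sfpq, 32 recruited let-7a and 7 recruited endogenous peaks.

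Some peaks hold stretches that also occur in other places of the genome. Such stretches were found in 3 of the 18 Ago2-let-7a, 3 of the 37 Sfpq and 3 of the 31 recruited let-7a peaks. Of all 25 nt words of the 3′UTR 1.66% occur elsewhere in GRCm38, and in the peaks of 109 (Ago2-let-7a) and 244 (Sfpq) 18.5% and 9.86% do. All other 3′UTR Ago2-let-7a peaks that are long enough to hold such a word have none. In the reading frames the Ago2-let-7a peaks of 20 (dismissed) and 38 have 27.9% and 13.0%, and a recruited let-7a peak of 13 (chr6:4756250-4756304) has 67.7%. Among the control Ago2 peaks those of 25 (first frame), 31, 25 (3′UTR) and 74 reads have 10.6%, 0.637%, 13.2% and 4.5%, and among the recruited endogenous peaks those of 1186, 1376 and 2715 reads have 5.23%, 2.79% and 2.96%. The bearing of shared words on the scores was not tested.

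Among the genes of each list, Peg10 was near the top by values and, for some lists, by number of peaks. In the Ago2-let-7a list it had the most 3′UTR peaks of 758 genes (11, median 1) and the second highest 3′UTR score after Lars2 (235). In the Sfpq list it ranked 1 of 2221 genes by its highest 3′UTR score and only 173 to 200 by number of 3′UTR peaks, where Taok1 had 34. In the recruited let-7a list it ranked 8 to 9 of 1616 by number and 6 by score, and in the recruited endogenous list 191 to 401 of 2315 by number and 4 by reads. In the control list it ranked 8 to 23 of 245 by number and 3 by reads. Its place by number depended on the length of its 3′UTR. Per 1000 nt of the longest annotated 3′UTR (5166 nt for Peg10), it had 2.13 Ago2-let-7a peaks and ranked 34 of 737 genes, or 9 with 3.36 if its 3′UTR is counted after the second frame.

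**Figure D4:**
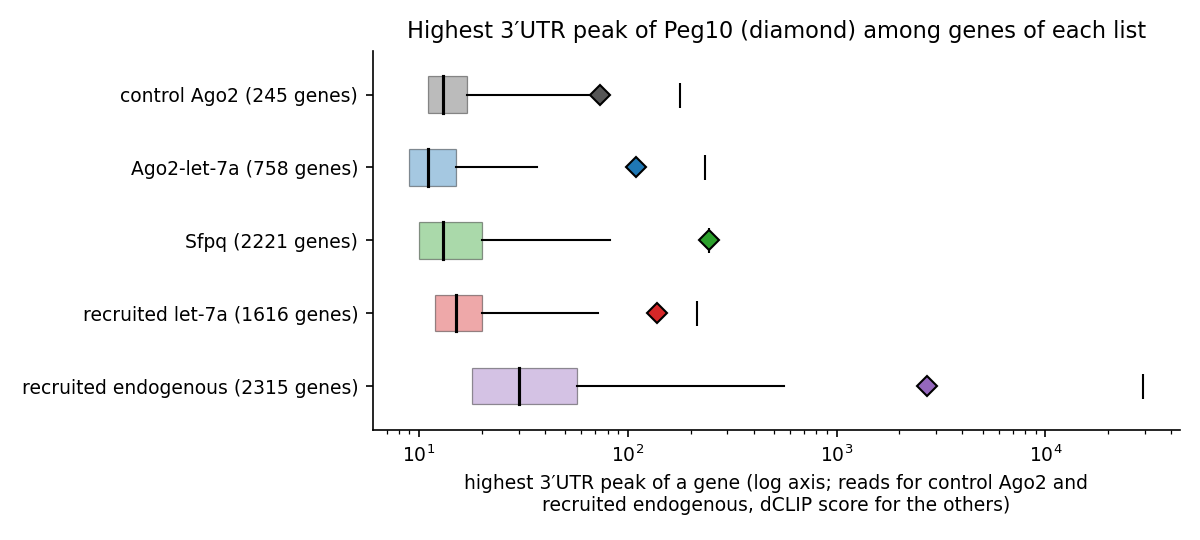
Highest 3′UTR peak of each gene by list on a log axis, as dCLIP score for the Sfpq and both let-7a lists and in reads for the rest; boxes run from the 25th to the 75th percentile of genes with a bar at the median, lines reach the 99th percentile, ticks mark the highest gene and diamonds Peg10. Peg10 is the highest gene in the Sfpq list (244) and lies beyond the 99th percentile in all 5 lists.

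The genes most like Peg10 were found by the distance between numbers of peaks (log2 of the number plus 1) in 3′UTR, exon and intron of the 5 lists, 15 values in all, among the 234 other genes with a peak in every list. They were Slc2a3, which encodes a neuronal-type glucose transporter (distance 3.24), Scd2, a fatty acid desaturase (3.92), Aff4, a scaffold of the super elongation complex (3.95), Skil, a repressor of TGF-beta signalling (4.40), and Prtg, a cell surface protein of the early embryo (4.66). In its 3′UTR, Slc2a3 had 5 Ago2-let-7a peaks, none of them dismissed, 6 Sfpq peaks with a highest score of 242, and 10 recruited let-7a peaks with a highest score of 215. In the other 4 genes 1 of 5, 2 of 4, 3 of 6 and 2 of 5 Ago2-let-7a peaks of the 3′UTR were dismissed, in the order named, each a smaller share than the 72.0% of all 3′UTR peaks of the list.

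Other imprinted genes had fewer peaks than Peg10. Of 29 others looked up by symbol, 20 had a peak in at least 1 list, and the most were found in Snrpn, with 53 in all, of which 44 were Sfpq peaks. Plagl1 (46 peaks), Meg3 (31), Gnas (30) and Rian (26) followed. Ago2-let-7a peaks were rare among them, at 5 in Gnas, 4 in Plagl1, 2 in Igf2 and 1 each in Mest and Sgce. Of these 13 peaks over all locations 11 were dismissed, a share near the 80.2% of all Ago2-let-7a peaks, against 4 of 18 in Peg10.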

How the data were processed

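Per the study's methods and the submitters' processing notes, the authors trimmed reads with cutadapt, mapped them to mm10 with STAR and then Bowtie2 (versions not given in the sources used here) and merged replicates before calling peaks. The deposited value is a dCLIP score in the lists that compare conditions (Sfpq and both let-7a lists). In the others it is a read count per peak, which the authors took from pyicoclip. The dismissed lists hold positions only, in other words start and end per peak, and were matched to the full lists by equal start, end and strand. Depth per library was not used here, so low values have no interval.

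Peaks were taken by gene symbol. Lengths count both ends, and whether files count from 0 or 1 is not stated, so edges may be off by 1 nt. Peaks of the dCLIP lists lie on a grid of 5 nt. Shared bases and distances were measured edge to edge on the same strand, or either strand for a peak without one. Sequences, exons and reading frames came from RefSeq GRCm38. Seed matches were searched on the transcribed strand. Distances and overlaps were tested on 200 simulated peaks, all of which gave the known answer. Python 3.11.15, pandas 2.3.3 and numpy 2.4.6 were used. The genes named are Peg10, neighbours with peaks inside it, the 5 most similar genes and a list of imprinted genes, besides the leading gene of a list (Lars2, Taok1) named after its value was seen. Peg10, the lists of genes and miRNAs and the comparisons were chosen with earlier results of these data known.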

Additional observations from a re-analysis of the deposited data

How the results depend on the processing

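Of 50 alternatives for 29 results, 24 stayed within the limits used, which were 1.5 times for counts and ranks and the 95% Wilson interval over bases for shares of the 3′UTR, 26 moved and 0 turned direction. Neighbouring bases of a peak are not independent, so that interval is too narrow and serves only as a fixed limit. The numbers of Peg10 peaks, of Ago2-let-7a peaks touching or near Sfpq or recruited peaks and of dismissed peaks stayed within the limits. Shares of the 3′UTR in peaks moved with its definition. In the longest annotated 3′UTR they were 33.5% (control Ago2), 25.5% (Ago2-let-7a), 52.2% (Sfpq), 37.3% (recruited let-7a) and 80.2% (recruited endogenous), in the order kept below. They were 43.2, 36.2, 47.7, 32.3 and 98.5% over the span of peaks labelled 3′UTR, and 43.5, 35.7, 48.1, 31.7 and 98.4% after the second frame, an alternative added after seeing the data. With values of at least 2 times the authors' minimum they fell to 31.1% for control Ago2, 22.7% for Ago2-let-7a and 34.5% for recruited let-7a. Ranks by number of 3′UTR peaks moved to 94, 34, 802, 146 and 1497 when counted per 1000 nt of the longest annotated 3′UTR. That length includes the second frame, whose peaks are labelled exon and were not counted. With the Peg10 3′UTR counted after the second frame, the ranks were 54, 9, 437, 29 and 1000. Ranks by highest peak over all locations moved to 13 (control Ago2), 5 (Ago2-let-7a), 2 (Sfpq) and 24 (recruited endogenous). Matches to let-7a bases 2 to 8 numbered 0 in exon 2 and 0 in Ago2-let-7a peaks, which held 2 matches to bases 2 to 7 when widened by 20 nt. Matches to bases 2 to 8 of the other miRNAs, also added after seeing the data, numbered 7, against 18 for bases 2 to 7. No paired analysis was possible because replicates were merged before peaks were called. For the same reason no replicate could be left out, and no value has an error.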
